A study of Macaca fascicularis with 2 samples.

Results

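Expression of 10 genes of the sperm tail and late spermatid, ODF1, AKAP3, AKAP4, SMCP, FSCN3, OAZ3, CRISP2, SPEM1, LELP1 and CAPZA3, was followed through germ cell stages of the scrotal testis of the cynomolgus monkey (Macaca fascicularis). The genes were chosen by symbol, and all 10 were found among the 28845 features of the count matrices. Single-cell RNA was measured in 2 testis libraries with a 10x Genomics kit that reads the 3' ends of transcripts in droplets. One came from a testis placed in the abdomen on one side only (UAT, a surgical model of cryptorchidism) and one from the contralateral testis in its scrotal position (CST). There was 1 library of each, the number and age of the animals were not given in the sources used here, and no treatment other than the surgery is named. Differences between stages are therefore differences within the CST library, and differences between positions are differences between 2 libraries. Intervals are 95% intervals that cover counting error only, and no test was possible.

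The sperm tail is built around an axoneme of microtubules. Along the midpiece and principal piece the axoneme is flanked by outer dense fibres. A helix of mitochondria wraps the midpiece, and a fibrous sheath encloses the principal piece. Much of the RNA for these parts is made before the sperm nucleus is compacted, stored with proteins that hold back translation, and read late in the elongating spermatid, after protamines have begun to replace histones and transcription has stopped.

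The 10 genes do not all code for parts of the sheath or the fibres. ODF1 encodes a major protein of the outer dense fibres, and AKAP3 and AKAP4 are the scaffold proteins of the fibrous sheath that anchor protein kinase A. SMCP is a cysteine-rich protein of the mitochondrial capsules in the midpiece. OAZ3 is a testis-specific ornithine decarboxylase antizyme, made by a ribosomal frameshift. CRISP2 is a cysteine-rich secretory protein found in the acrosome and the tail, and SPEM1 acts in the shedding of cytoplasm and the straightening of the head and neck. CAPZA3 is a germ cell subunit of the actin capping protein, and FSCN3 is the testis fascin, of the actin-bundling family. LELP1 encodes a small proline-rich protein.

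The UAT and CST libraries held 12564 and 15952 barcodes with 111047299 and 197225937 unique molecular identifiers (UMIs), which count single RNA molecules. After a minimum of 500 detected genes and removal of likely doublets, 11131 and 13201 cells remained, and 50 barcode sequences occurred in both libraries. Clusters were named from marker genes, so each stage name means cells like that stage. In CST, 562 cells were like undifferentiated spermatogonia, 446 like differentiating spermatogonia, 418 like pachytene spermatocytes, 2131 like spermatocytes nearing meiotic division, 1940 like round spermatids and 3120 like elongating spermatids. The pachytene cluster scored 2.10 for pachytene markers and 2.08 for markers of early meiotic prophase, for which no separate cluster was found. A cluster of 905 cells nearing division scored 2.18 for that stage and 1.93 for pachytene markers. The summed pachytene markers were at 8026 CPM in cells nearing division and 7384 CPM in pachytene cells, so the boundary between these stages is not firm. Another 1953 CST cells stayed unnamed, with a median of 1113 UMIs. Median UMIs ranged from 2918 in undifferentiated spermatogonia to 36284.5 in pachytene cells, and were 21859 in round and 12903 in elongating spermatids. UAT had no round or elongating spermatid-like cells, and its germ cells were mainly 285 undifferentiated spermatogonia.

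Levels are given as CPM, the UMIs of a gene per 1000000 summed UMIs of a class, which is a share of RNA and not an amount per cell. Spermatid RNA was found in every somatic class of CST. In the 2604 cells of 6 somatic classes, which should not make these genes, the summed level was 528 CPM for CRISP2, 125 for LELP1, 111 for SMCP and 2.56 to 53.7 for the other 7 genes. A germ stage at or below such a level was read as background. The unnamed cells had CRISP2 at 2408 CPM and SMCP at 480 CPM, above the somatic level.

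CRISP2 was above its highest somatic class, at 1136 CPM, from the pachytene cells on. Its level was 406 CPM in undifferentiated and 233 CPM in differentiating spermatogonia, both below the somatic 528 CPM. It was 2723 CPM in pachytene cells, 4797 in spermatocytes nearing division, 5229 in round and 7312 in elongating spermatids. When each cell was thinned to 1000 UMIs, 72.0% (67.4 to 76.3) of pachytene cells held a CRISP2 UMI, against 40.4% (38.5 to 42.3) of somatic cells and 26.9% (22.8 to 31.3) of differentiating spermatogonia. Without thinning the shares were 98.6%, 82.1% and 89.2%, at median depths of 36284.5, 4293.5 and 10650 UMIs. At a finer clustering (Leiden resolution 2) a group of 194 cells like early meiotic prophase separated, and CRISP2 was at 310 CPM there, again below the somatic level.

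Onset was defined as the first stage at 10% or more of the peak stage and at 2 times or more of the highest somatic class. By this rule CRISP2 had its onset in pachytene cells, FSCN3 in elongating spermatids and the other 8 genes in round spermatids. Among 6871 genes of at least 50 CPM in some stage, 12.8% had their onset in pachytene cells, 10.4% in round spermatids and 1.89% in elongating spermatids, and 44.2% had none by this rule. The count of 8 depended on the somatic class set as background, and ranged from 0 to 8 over other ways to form the classes. The CRISP2 onset stayed in pachytene cells in 10 of 16 alternatives. The 10 include runs on the main classes and runs with all somatic classes summed as background, chosen after the values were seen. With the highest somatic class as background, Leiden resolution 2 was the only newly formed set of classes that kept the onset there. The onset was lost in 3 (a minimum of 200 genes, CST clustered alone and each cell gated by its own marker scores) and fell in spermatocytes nearing division in 1, with a minimum of 1000 genes. In the other 2, without doublet removal and with the members kept for clustering, it fell in early meiotic prophase, and no cluster was then named pachytene.

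AKAP3 came closest to an earlier onset. Its level was 37.7 CPM (34.8 to 40.8) in pachytene cells and 75.1 (72.1 to 78.1) in spermatocytes nearing division, against 15.0 (12.8 to 17.3) in all somatic cells. Its highest somatic class, 76 cells like pericytes or vascular smooth muscle, was at 38.8 CPM (15.6 to 79.9), from 7 UMIs. That level is what kept the rule from calling AKAP3 before round spermatids. With the summed somatic classes as background, a choice made after the values were seen, AKAP3 had its onset in pachytene cells and FSCN3 in round spermatids. SMCP and ODF1 stood in between. SMCP was at 116 CPM (112 to 120) in spermatocytes nearing division, close to its somatic 111 CPM, and at 1613 CPM in round spermatids. ODF1 was at 24.8 CPM (23.1 to 26.6) and then 178 CPM (174 to 182), with a somatic level of 21.4 CPM. The spermatocytes nearing division joined unlike clusters of 905 and 1226 cells. SMCP was at 43.5 CPM (39.5 to 47.8) in the first and 150 CPM (145 to 155) in the second. ODF1 was at 5.02 (3.74 to 6.60) and 34.1 CPM (31.7 to 36.7), so both genes were above the summed somatic level in the second cluster only. Even there both were below their highest somatic class, at 332 CPM for SMCP and 51.1 CPM for ODF1.

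In CPM the remaining genes were at or below the somatic level in all stages before the round spermatid. In UMIs per cell each was higher in pachytene than in somatic cells, as for LELP1 with 1.06 and 0.564. Median depths were 36284.5 and 4293.5 UMIs, and the part of depth in this was not tested. AKAP4 was at 4.27 CPM in pachytene cells, 15.0 nearing division, 206 in round and 754 in elongating spermatids. OAZ3 was at 11.6, 17.4, 495 and 1527 CPM in the same 4 stages. CAPZA3 was at 10.0, 25.2, 1041 and 2203 CPM. Each of these 3 genes had a larger share of RNA in each spermatid class than in any earlier stage. LELP1 was at 26.9, 79.6, 1587 and 5280 CPM. SPEM1 was at 2.74, 4.16, 126 and 774 CPM, and FSCN3 at 0.488, 0.599, 7.94 and 69.6 CPM. SPEM1 and FSCN3 had reached 16.3% and 11.4% of their elongating level in round spermatids, the lowest shares of the 10, whereas CRISP2 had reached 71.5%, SMCP 57.8% and ODF1 56.9%.

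**Figure D1:**
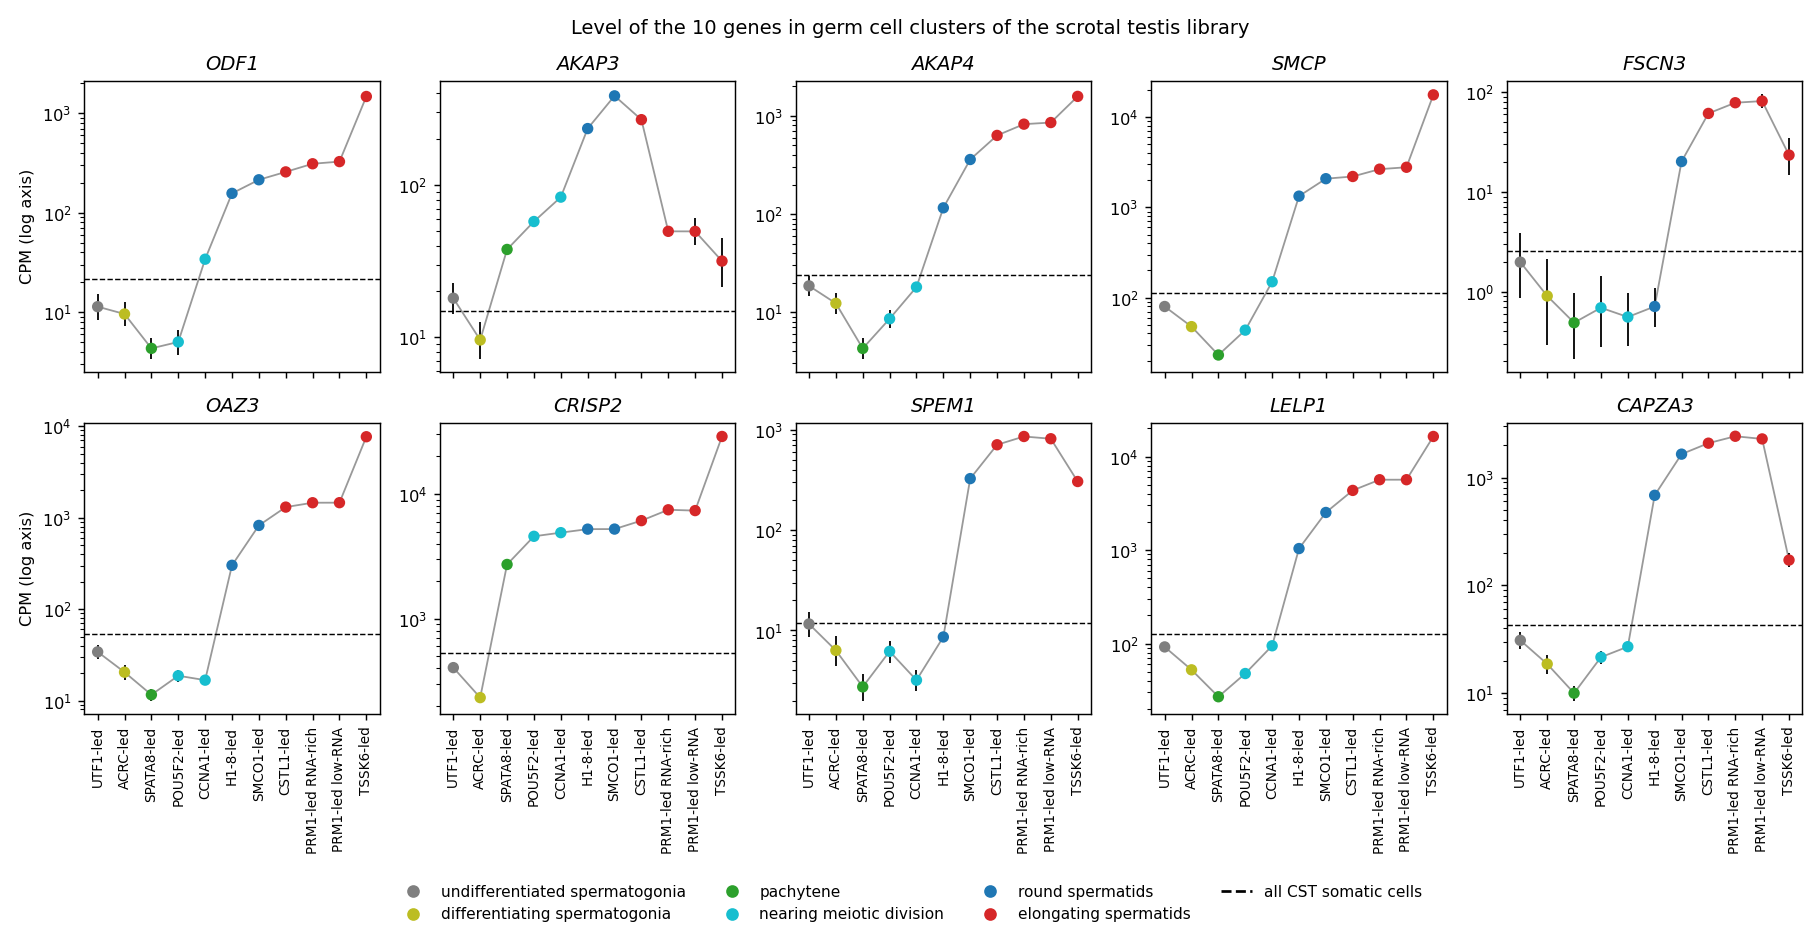
CPM (log axis) of each gene in 11 germ cell clusters of the CST library, with bars for the 95% counting interval, points coloured by stage and a dashed line at the level of all somatic cells. The clusters are in the order of their stages and, within the elongating stage, of falling UMIs per cell, which is not a measured order in time. CRISP2 crosses the dashed line at the SPATA8-led pachytene cluster, and 6 genes are highest in the TSSK6-led cluster.

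The round spermatids formed 2 clusters, each named here by the first gene with a symbol among its leading genes. The 1323 cells of the H1-8-led cluster had SPEM1 at 8.62 CPM and FSCN3 at 0.710, both below their somatic levels of 11.9 and 2.56. The 617 cells of the SMCO1-led cluster had SPEM1 at 326 CPM and FSCN3 at 20.2. So SPEM1 and FSCN3 were above background in one round spermatid cluster and not in the other. The other 8 genes were above it in both. AKAP4 was at 116 and 360 CPM, OAZ3 at 302 and 823, and CAPZA3 at 684 and 1648. CRISP2 was at 5227 and 5233 CPM, the same within its counting error.

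In CPM, 9 of the 10 genes had their peak in elongating spermatids and AKAP3 had it in round spermatids. Of the 6871 genes, 9.36% peaked in elongating spermatids and 13.5% in round spermatids. AKAP3 was at 291 CPM (286 to 296) in round and 152 CPM (148 to 156) in elongating spermatids. Within the elongating stage AKAP3 was at 269 CPM in 788 cells of a CSTL1-led cluster and at 49.6 CPM in 1141 cells of a PRM1-led, RNA-rich cluster. Its partner in the fibrous sheath, AKAP4, was at 633 and 825 CPM in the same clusters. The AKAP3 level was thus lower where the AKAP4 level was higher, and lower still, at 31.6 CPM, in the TSSK6-led cluster described later.

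In UMIs per cell over whole stages, CRISP2 and SMCP had no peak in elongating spermatids. CRISP2 had 127 UMIs per round spermatid and 102 per elongating spermatid, and 107 per pachytene cell. SMCP had 39.1 per cell in both spermatid stages. LELP1 had 38.4 per round and 73.9 per elongating spermatid, and SPEM1 3.06 and 10.8. Elongating spermatids had fewer UMIs in all, a mean of 13986.2 per cell against 24224 in round spermatids, so for SMCP and CRISP2 a higher CPM went with an equal or lower count per cell.

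Elongating spermatids were then divided at 5000 UMIs into 1208 low-RNA and 1912 RNA-rich cells, with 193 cells between 4000 and 6000 UMIs. The median was 2089 UMIs in the low-RNA and 19600.5 in the RNA-rich cells. The low-RNA cells held 6.25% of the UMIs of all elongating cells. They held 17.7% of the elongating UMIs of SMCP, 14.5% of OAZ3, 14.4% of ODF1, 12.3% of CRISP2, 10.8% of LELP1 and 8.87% of AKAP4. For FSCN3, SPEM1, CAPZA3 and AKAP3 they held 5.70%, 5.25%, 4.46% and 2.32%.

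SMCP was at 7895 CPM in low-RNA and 2452 CPM in RNA-rich cells, a ratio of 3.22 (3.17 to 3.27). OAZ3 was at 3548 and 1392 CPM, a ratio of 2.55 (2.49 to 2.60). ODF1 was at 717 and 286 CPM, a ratio of 2.51 (2.39 to 2.64). These are the mitochondrial capsule protein, the antizyme and the outer dense fibre protein. CRISP2 and LELP1 had ratios of 2.11 (2.09 to 2.13) and 1.82 (1.80 to 1.85), and AKAP4 1.46 (1.40 to 1.52). FSCN3, at 63.4 and 70.0 CPM, had a ratio of 0.906 (0.773 to 1.06), whose interval includes 1. SPEM1 was at 0.830 (0.791 to 0.871), CAPZA3 at 0.700 (0.678 to 0.722) and AKAP3 at 0.357 (0.302 to 0.419).

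At a limit of 1.5-fold, 5 of the 10 genes were higher and 1 was lower in low-RNA cells. Of 2335 genes of at least 50 CPM in either group, 27.8% were higher and 24.5% lower. With a minimum of 1000 detected genes, which left 323 low-RNA cells, no member was 1.5-fold higher. In that setting 8.28% of 2137 genes were higher and 9.55% lower. SMCP, OAZ3 and ODF1 then had ratios of 1.40, 1.35 and 1.45, CRISP2 1.22 and LELP1 1.18. With the groups divided at 2500 UMIs, the SMCP ratio was 5.07.

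The low-RNA cells were a mixture of unlike cells. Of the 1208, 558 belonged to a cluster of 573 cells led by TSSK6, a kinase of late spermatids and one of the elongating markers, and 569 to a PRM1-led cluster. This division was chosen after the values were seen, and neither the 10 genes nor the related genes listed later were used to form the clusters. PRM1, the first of the protamines that pack sperm DNA, was at 17441 CPM in TSSK6-led cells, 166622 in PRM1-led low-RNA cells and 152127 in the 1897 RNA-rich cells outside the TSSK6-led cluster. PRM2 was at 133568, 103252 and 91721 CPM. TNP1, a transition protein, was at 2567 CPM in TSSK6-led and 54478 in PRM1-led low-RNA cells. The elongating markers TNP2 and HMGB4 were at 1870 and 1254 CPM in TSSK6-led cells, against 33307 and 21073 in PRM1-led low-RNA cells. The elongating marker score was 1.48 in the TSSK6-led cluster and 1.91 to 1.99 in the other elongating clusters. TSSK6 was the only marker among its leading genes. Without a leading marker a cluster of its depth would have stayed unnamed. TSSK6-led cells had a median of 1250 UMIs and 1.13% mitochondrial UMIs, against 2622 UMIs and 0.592% in PRM1-led low-RNA cells. The part of depth and cell quality in the differences that follow was not tested.

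In PRM1-led low-RNA cells the 10 genes stood at nearly the RNA-rich levels. SMCP was at 2814 and 2433 CPM, a ratio of 1.16 (1.12 to 1.19), and CAPZA3 at 2268 and 2250 CPM, a ratio of 1.01 (0.974 to 1.04). AKAP3 alone of the 10 passed 1.5-fold, at 52.5 and 159 CPM, a ratio of 0.331 (0.263 to 0.412). The background was 9.28% of 2144 genes higher and 17% lower. The RNA-rich cells include the CSTL1-led cluster, and against the PRM1-led RNA-rich cluster alone (49.6 CPM) the PRM1-led low-RNA cluster had the same AKAP3 level (49.6 CPM in 618 cells).

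In TSSK6-led cells the 10 genes split. SMCP was at 17762 CPM, a ratio of 7.30 (7.18 to 7.42) to RNA-rich cells. OAZ3 was at 7680 against 1382 CPM, a ratio of 5.56 (5.43 to 5.69). ODF1 was at 1474 against 284 CPM, a ratio of 5.20 (4.92 to 5.49). Most TSSK6-led cells are also low-RNA cells, so these ratios share cells with those given above. CRISP2 was at 28891 against 6793 CPM, a ratio of 4.25 (4.20 to 4.31). LELP1 was at 16399 against 5001 CPM, a ratio of 3.28 (3.23 to 3.33). AKAP4 was at 1583 against 729 CPM, a ratio of 2.17 (2.06 to 2.28). CRISP2, SMCP and LELP1 were thereby the features with the 2nd, 5th and 7th highest level in these cells.

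The other 4 were lower in TSSK6-led cells. CAPZA3, the actin capping subunit, was at 171 against 2250 CPM, 13.1-fold lower (11.3 to 15.4). AKAP3 was at 31.6 against 159 CPM, 5.01-fold lower (3.53 to 7.38), from 31 UMIs. FSCN3 was at 23.5 against 70.1 CPM, 2.99-fold lower (1.99 to 4.72), from 23 UMIs. SPEM1 was at 305 against 783 CPM, 2.57-fold lower (2.29 to 2.89). AKAP3 and FSCN3 reached 50 CPM in RNA-rich cells alone, so they could not have been called higher. With CST clustered alone the FSCN3 ratio was 0.587 in place of 0.335, and with the somatic level subtracted the AKAP3 ratio was 0.116, further below 1. The 2 actin-binding genes were both on this side, and the 2 A-kinase anchoring genes were on opposite sides.

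Such changes were common in these cells. Of 2666 genes, 44% were at least 1.5-fold higher and 40% lower in TSSK6-led than in RNA-rich cells, so 6 of 10 higher and 4 of 10 lower is no result about these genes. Many of the 2666 passed the 50 CPM minimum in 1 group alone, which fixes their direction. Of the 1269 at 50 CPM or more in both groups, 36.7% were higher and 34.3% lower, and of the 8 such members 6 were higher and 2 lower. The median log2 ratio, with 10 CPM added to each level, was 1.41 over the 10 genes and 0.14 over all genes. With PRM1, PRM2, TNP1, TNP2 and HMGB4 left out of the totals, 34.6% of genes were higher and 47.4% lower. SMCP then had a ratio of 5.58 and AKAP4 of 1.66, and all 10 kept their side of 1.5-fold. The 10 genes together took 7.43% of UMIs in TSSK6-led cells, 1.99% in RNA-rich, 2.17% in PRM1-led low-RNA, 1.08% in round spermatid-like and 0.0936% in somatic cells.

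**Figure D2:**
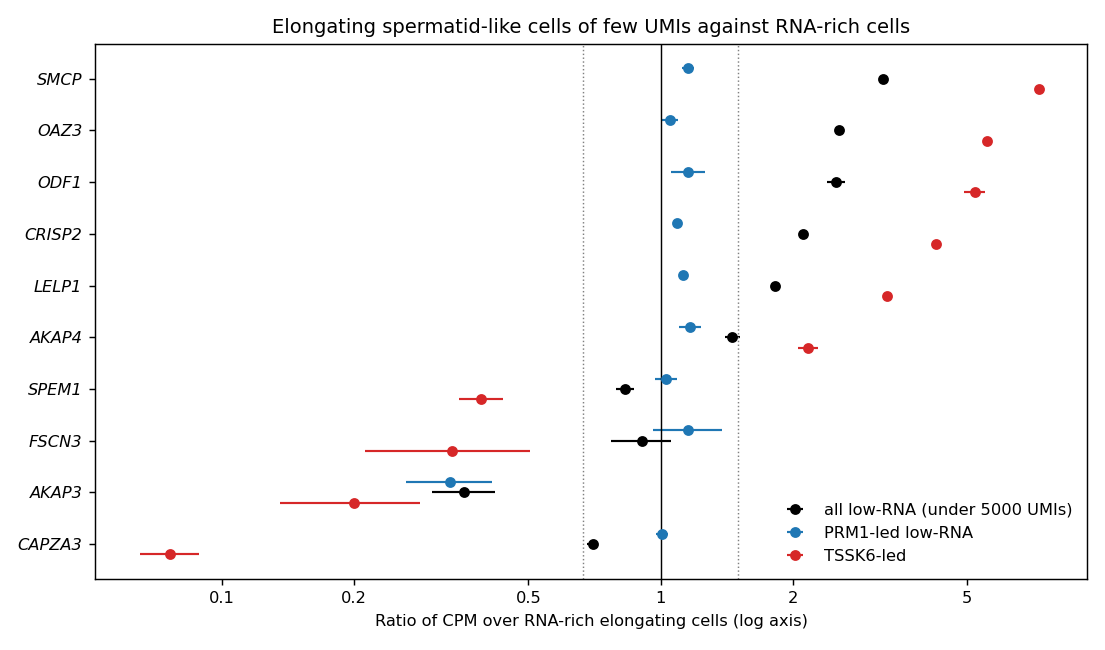
Ratio of CPM (log axis) of each gene in 3 groups of elongating cells of few UMIs over RNA-rich cells, with 95% counting intervals and dotted lines at 1.5-fold. The PRM1-led low-RNA cells lie near 1 except for AKAP3, and the ratios over all low-RNA cells lie between those of the PRM1-led and the TSSK6-led cells except for AKAP3.

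**Figure D3:**
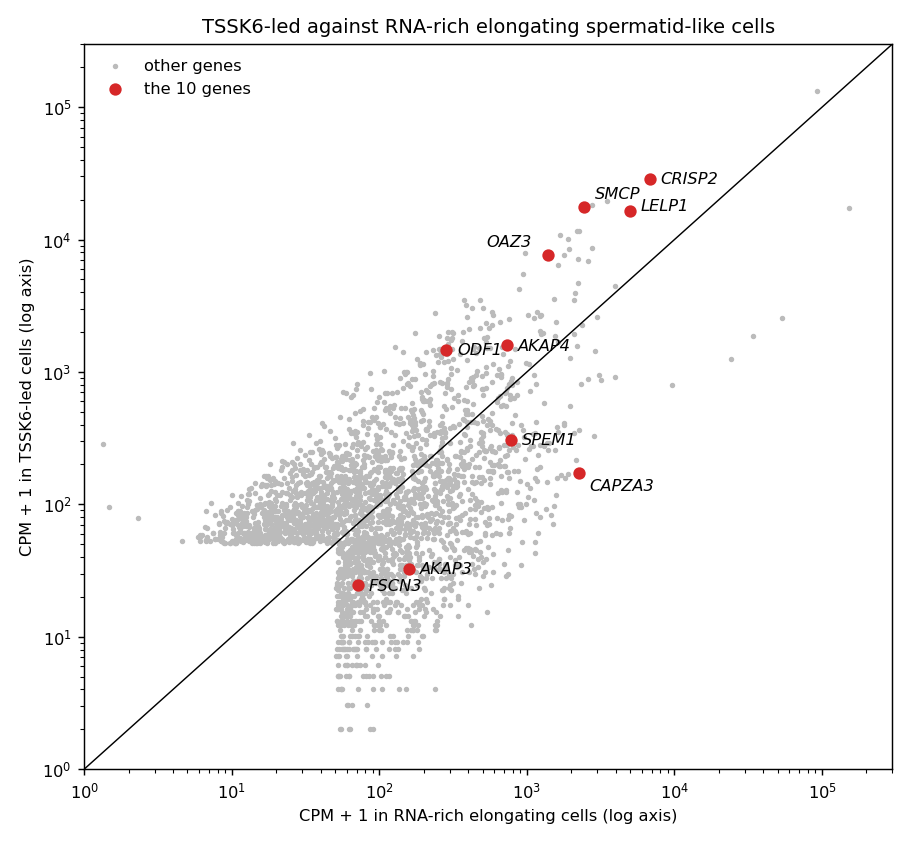
CPM plus 1 (both axes log) of 2666 genes of at least 50 CPM in TSSK6-led or RNA-rich elongating cells, with the 10 genes in red and a line of equal level. SMCP, CRISP2, LELP1, OAZ3, ODF1 and AKAP4 lie above the line and SPEM1, CAPZA3, AKAP3 and FSCN3 below it, inside a cloud that is wide on both sides.

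Counted per cell, the TSSK6-led cells held fewer UMIs of every member than RNA-rich cells. SMCP had 30.4 UMIs per TSSK6-led cell, 52.3 per RNA-rich cell and 7.63 per PRM1-led low-RNA cell. CRISP2 had 49.4, 146 and 20.1, and CAPZA3 0.293, 48.4 and 6.15. TSSK6-led cells therefore held more SMCP and CRISP2 molecules than PRM1-led low-RNA cells of a higher total, and fewer CAPZA3 molecules. The 5 highest of the 573 TSSK6-led cells held 2.90% of the SMCP UMIs, with quartiles of 19, 27 and 38 UMIs per cell. For the other 5 genes with a higher level they held 3.28% (OAZ3) to 6.90% (AKAP4). For SPEM1 and CAPZA3 they held 9.70% and 15.5%. For AKAP3 and FSCN3 the shares were 16.1% and 21.7%, and no cell held more than 1 UMI, so they reflect how few UMIs there were.

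UMIs of each gene were also set against those of PRM1, which was itself lower in TSSK6-led cells, beside the same proportion in somatic cells, whose spermatid RNA was read as background. There were 102 SMCP UMIs per 100 PRM1 UMIs in TSSK6-led cells, 1.60 in RNA-rich cells and 4.45 to 8.15 over the 6 somatic classes. CRISP2 had 166, 4.47 and 16.4 to 29.8, and ODF1 8.45, 0.186 and 0.915 to 1.16. The proportion in TSSK6-led cells was above the somatic range for these genes and for OAZ3, LELP1, AKAP4 and SPEM1. FSCN3, at 0.135, was inside its somatic range of 0 to 0.141. CAPZA3, at 0.983, was below 1.40 to 2.58, and AKAP3, at 0.181, below 0.349 to 0.995. In RNA-rich cells the proportion was inside the somatic range for SPEM1, FSCN3 and CAPZA3 and below it for the other genes. The part of free RNA in the levels of TSSK6-led cells was not tested.

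The share of cells with a UMI was compared at an equal depth of 1000 UMIs. ODF1 was found in 76.5% (72.3 to 80.4) of 447 TSSK6-led cells, 24.3% (22.4 to 26.3) of RNA-rich, 15.9% (14.3 to 17.6) of round and 1.74% (1.28 to 2.33) of somatic cells. CAPZA3 was found in 15.2% (12.0 to 18.9) of TSSK6-led, 88.9% (87.4 to 90.3) of RNA-rich and 4.27% (3.52 to 5.12) of somatic cells. Without thinning the ODF1 shares were 85.0% of TSSK6-led, 98.4% of RNA-rich and 7.87% of somatic cells, and those of CAPZA3 were 22.5%, 100% and 15.2%. The thinning left out 126 TSSK6-led cells of under 1000 UMIs. AKAP3, at 3.80% (2.23 to 6.02) of TSSK6-led cells, was near its somatic 1.74% (1.28 to 2.33). CRISP2 and LELP1 had a UMI in 99.1% to 100% of both TSSK6-led and RNA-rich cells, where the share can show no difference. At a depth of 2000 UMIs, 139 TSSK6-led and 437 PRM1-led low-RNA cells remained. ODF1 was then found in 89.2% (82.8 to 93.8) of TSSK6-led and 48.7% (44.0 to 53.5) of PRM1-led low-RNA cells. CAPZA3 was found in 20.1% (13.8 to 27.8) and 99.1% (97.7 to 99.8). For these 2 genes the difference between the clusters was thus present at equal depth.

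**Figure D4:**
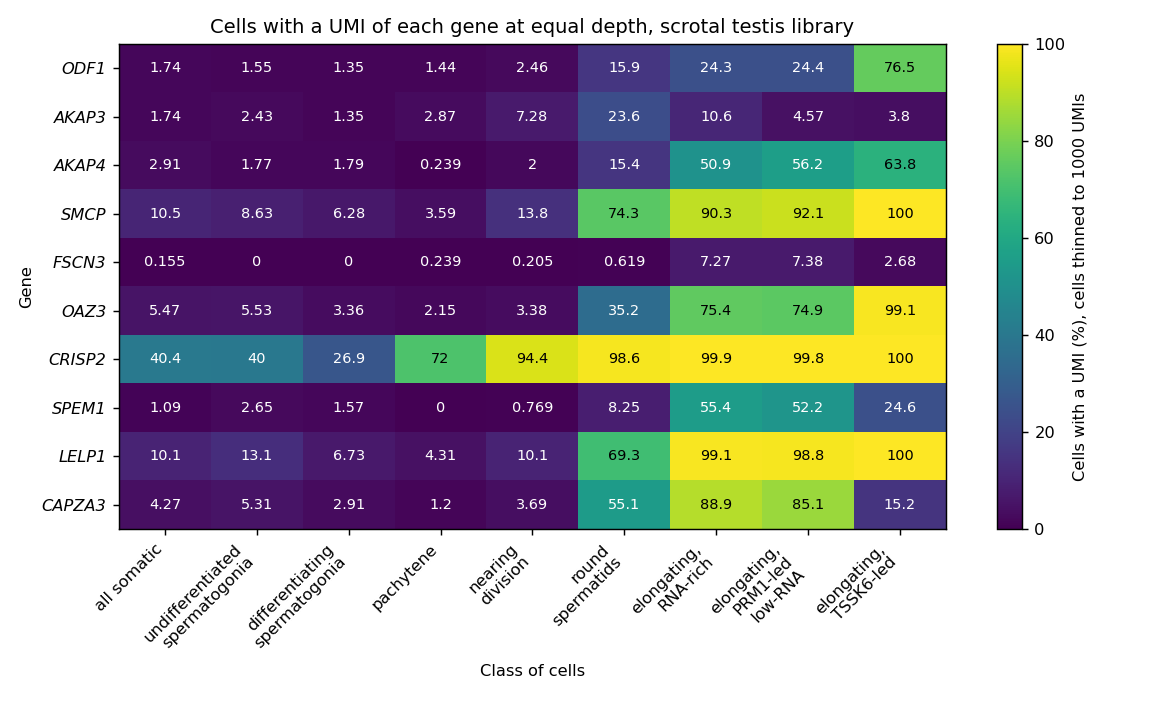
Percentage of cells with a UMI of each gene (colour and printed value) after thinning every CST cell to 1000 UMIs, by class of cells. CRISP2 is found in 40.4% of somatic and 72.0% of pachytene cells, whereas ODF1 goes from 24.3% of RNA-rich to 76.5% of TSSK6-led cells and CAPZA3 from 88.9% to 15.2%.

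Levels also differed by the UMIs of the cell. In elongating cells of 20000 or more UMIs SMCP was at 2344 CPM, in those of 5000 to 10000 at 3021, in those of 2000 to 5000 at 4888, in the 442 cells of 1000 to 2000 at 15183 and in the 126 cells under 1000 at 20666. CAPZA3 was at 2197, 2148, 1890, 787 and 285 CPM in the same bins. TSSK6-led cells made up 0%, 6.64%, 19.4%, 69.7% and 100% of these bins, so the share of that cluster moved with the depth. AKAP4 was at 704, 931, 1130, 942 and 703 CPM, highest in the 2000 to 5000 bin.

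**Figure D5:**
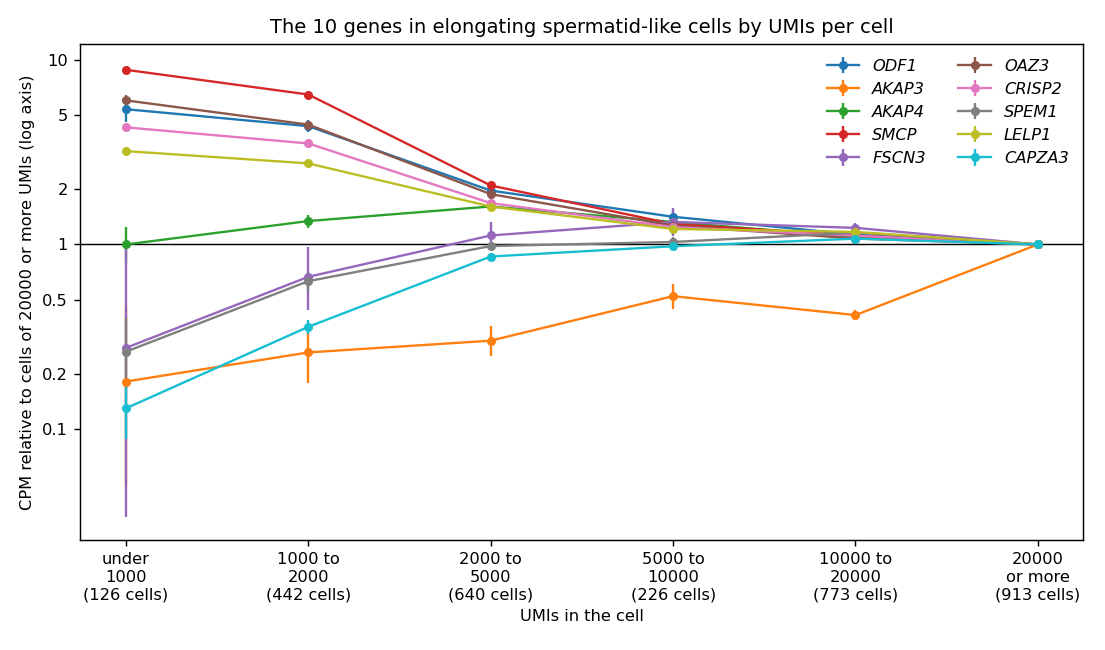
CPM of each gene relative to elongating cells of 20000 or more UMIs (log axis) in 6 bins of UMIs per cell, with 95% counting intervals of the bin. SMCP, OAZ3, ODF1, CRISP2 and LELP1 are higher in each lower bin below 5000 UMIs, CAPZA3, SPEM1 and FSCN3 lower, and AKAP4 goes up and then down.

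The genes resembled each other to different degrees over 15 germ cell clusters of the finer clustering. Pearson correlations of log2(CPM + 10) were 0.995 between SMCP and ODF1, 0.995 between LELP1 and AKAP4, 0.991 between LELP1 and OAZ3 and 0.977 between SPEM1 and FSCN3. AKAP3 had its lowest correlation with FSCN3, 0.217, and its highest with CAPZA3, 0.619. The clusters share 1 library and its free RNA, and the values are a description. The 10 genes outside the list most like the mean of the members were GSG1, GAPDHS, CCDC188, BPIFA3, MISFA, UBL4B, TSSK2, DNAJB8, CHRNE and AKAP14, with correlations from 0.991 down to 0.983. GSG1 was one of the markers used to name the elongating clusters. GAPDHS, the sperm form of a glycolytic enzyme bound to the fibrous sheath, and AKAP14, another anchoring protein, are also among the related genes that follow.

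Related genes were taken from 6 lists of the same structures and pathways, 65 symbols in all, of which 59 were among the features and 51 reached 50 CPM in some CST stage. Of the 51, 18 had their peak in elongating and 14 in round spermatids, beside 9.36% and 13.5% of 6871 genes. Of 39 with at least 50 CPM in TSSK6-led or RNA-rich cells, 17 were at least 1.5-fold higher and 18 lower in TSSK6-led cells, beside the 44% and 40% of all genes. Of the 27 at 50 CPM or more in both groups, whose direction the minimum does not fix, 9 were higher and 14 lower. Of all such genes, 36.7% were higher and 34.3% lower. In the outer dense fibre and fibrous sheath list, 4 of 11 such genes were higher and 5 lower. CCDC38, a coiled-coil protein of the sperm tail, was at 120 against 13.3 CPM, a ratio of 9.05 (7.36 to 11.1), and reached the minimum in TSSK6-led cells alone. ODF3L2 was at 2010 against 309 CPM, a ratio of 6.51 (6.21 to 6.83), and GAPDHS at 4670 against 2232 CPM, a ratio of 2.09 (2.03 to 2.16). ODF2, a core protein of the outer dense fibres, was at 1284 against 1944 CPM, a ratio of 0.660 (0.624 to 0.698). It was on the other side from ODF1. ROPN1B, a ropporin that binds A-kinase anchoring proteins, was at 193 against 711 CPM, a ratio of 0.271 (0.234 to 0.313).

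In the list of actin, calyx and sperm head, the 6 genes at 50 CPM or more in both groups were all lower in TSSK6-led cells, beside 34.3% of all such genes. ACTRT2, an actin-related protein of the sperm head, was at 803 against 2307 CPM, a ratio of 0.348 (0.324 to 0.374). CAPZB, the partner of CAPZA3 in the capping protein, was at 193 against 695 CPM, a ratio of 0.277 (0.239 to 0.320). Its level in TSSK6-led cells was below its highest somatic class at 259 CPM. CCIN, encoding calicin of the calyx around the nucleus, was at 18.4 against 271 CPM, a ratio of 0.0678 (0.0402 to 0.107), and reached the minimum in RNA-rich cells alone. CAPZA1, the somatic counterpart of CAPZA3, was at 63.3 against 31.6 CPM, both below its highest somatic class at 215 CPM. In the list of antizymes and polyamines 1 gene reached the minimum in both groups. This was AZIN2, an antizyme inhibitor, which was at 1260 against 180 CPM, a ratio of 7.01 (6.59 to 7.44). ODC1, the ornithine decarboxylase that antizymes bind, was at 120 against 22.6 CPM and OAZ1, the antizyme of most tissues, at 150 against 47.3 CPM, both genes below their highest somatic classes at 187 and 2267 CPM.

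Genes of the mitochondrial sheath were divided, with 4 of 8 at 50 CPM or more in both groups higher and 2 lower. The shares of all such genes were 36.7% and 34.3%. Of the 4, VDAC2 had the highest ratio, 3.03 (2.61 to 3.50), at 203 against 67.0 CPM, and its highest somatic class was at 421 CPM. SPATA19, a protein of sperm mitochondria, was at 81.7 against 1457 CPM, a ratio of 0.0560 (0.0444 to 0.0697), opposite to SMCP. GPX4, a selenoprotein that forms much of the mitochondrial capsule, was at 1946 against 2073 CPM, a ratio of 0.938 (0.896 to 0.982). Among the protein kinase A subunits, PRKAR2A was at 146 against 1362 CPM, a ratio of 0.107 (0.0903 to 0.126). PRKAR1A went the other way, at 125 against 35.6 CPM, a ratio of 3.50 (2.88 to 4.21). It reached the minimum in TSSK6-led cells alone, and its highest somatic class was at 386 CPM. Of the 6 listed CRISP and SPEM relatives, 4 were among the features, and none of these reached 50 CPM in a CST stage. SPEM2 and SPEM3 were not among the features, so they were not measured.

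The abdominal testis library held almost none of this RNA. Over all its barcodes the members had 4 (CAPZA3) to 131 (AKAP3) UMIs, against 4198 (FSCN3) to 937894 (CRISP2) in CST. CRISP2 was at 0.720 CPM (0.571 to 0.897) in UAT and 4755 CPM in CST, a 6601-fold (5304 to 8325) difference between the libraries. All 10 were at least 1.5-fold lower in UAT, 9 of them with the 50 CPM that the background of 5775 genes required, reached in CST alone. Of those 5775 genes, 41.8% were lower, and UAT had no spermatid-like cells. FSCN3 had the smallest difference, 81.5-fold (56.7 to 122), and AKAP3 the next, 126-fold (106 to 150).

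AKAP3 in UAT was highest in the 285 undifferentiated spermatogonia, with 50 UMIs, 12.2 CPM (9.05 to 16.1). SMCP had 25 UMIs there, 6.09 CPM (3.94 to 8.997). For comparison AKAP3 was at 18.0 CPM (14.1 to 22.7) in CST undifferentiated spermatogonia, where the CST somatic level was 15.0 CPM. Thus AKAP3 UMIs were found in spermatogonia of a library with no spermatid-like cells.

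The RefSeq gene table of the species lists genes that overlap 3 of the members, DYRK4 with AKAP3, TDRKH with OAZ3 and SPRR2G with LELP1. Whether the counts used the strand is not given in the sources used here, so reads of a pair on opposite strands cannot be told apart with certainty. DYRK4 reached 100 CPM, in round spermatids like AKAP3. TDRKH was at 2.04 CPM in TSSK6-led cells and SPRR2G at 0, against 7680 and 16399 CPM of OAZ3 and LELP1.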

How the data were processed

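Each deposited matrix gives raw UMI counts, whole numbers for every gene in every barcode, per the file headers and the values. The matrix header names Cell Ranger 5.0.0. The submitters' processing notes give version 3.0.1 and mm10, a mouse build, yet the features carry macaque symbols. The build is thus not settled, and no coordinates or sequences are printed. A RefSeq gene table of assembly T2T-MFA8v1.1 served for gene names and for which genes overlap the members. Barcodes of at least 500 genes were kept, and 1221 UAT and 1800 CST cells were removed as likely doublets (0.8% per 1000 barcodes, scored against 2 simulated doublets per cell on 30 components). Both libraries were clustered together with scanpy 1.11.5 (2000 variable genes without the members and related genes, 40 components, 15 neighbours, Leiden resolution 1). Clusters were named by the highest score among 18 marker lists. They stayed unnamed with under 3 markers detected, a median depth under 1/3 of the library's with no marker leading, leading markers of another class, or unlike classes scoring alike. This naming scheme was made with the files in view.

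UMIs were summed per class and divided by the class total. Levels have exact Poisson, ratios exact conditional binomial and shares exact (Clopper-Pearson) 95% intervals, for counting error only. The members and lists were chosen with earlier results of these data known. All members are named. Related genes named are among those highest in a CST stage or past 1.5-fold in low-RNA cells, and the most alike are the 10 with the highest correlation at 100 CPM or more. ODF3L2, CAPZA1 and CAPZB were added after their values were seen. The ratio and stage calls were run on simulated counts with Poisson error alone, which cannot test cell-to-cell spread, free RNA or cluster naming. Alternatives were other gene minimums, UMI limits, CPM filters, onset limits, clusterings, a gate per cell, no doublet removal, thinning depths, totals without 5 abundant genes, subtraction of the somatic level and leaving out barcodes found in both libraries.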

Additional observations from a re-analysis of the deposited data

How the results depend on the processing

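No member's ratio changed from at least 1.5-fold higher to lower or the reverse, and the count of 9 peaks in elongating spermatids stayed within 1.5 times, under every alternative run. The onset count was less stable. The 8 onsets in round spermatids became 0 with a minimum of 200 genes, 4 with CST clustered alone and 1 with each cell gated by its own marker scores. In those settings the highest somatic class held CRISP2 at 4107, 4534 and 9889 CPM, against 1136 in the main setting. With the summed somatic classes as background, chosen after seeing the data, the count was 8, and 7 in each of the 3 settings. In low-RNA against RNA-rich cells, the count of lower members was 2 instead of 1 at a limit of 2500 UMIs, with 200 genes and without 5 abundant genes, the second being CAPZA3. In these settings 30.2%, 27.0% and 29.4% of all genes were lower. With the somatic level subtracted, 23.4% of all genes were higher and 36.6% lower in low-RNA cells. The count of higher members was 0 instead of 5 at a minimum of 1000 genes, where 8.28% of 2137 genes were higher. That setting left 33 TSSK6-led cells, too few to compare, and a gate per cell formed no TSSK6-led cluster. For TSSK6-led cells all 10 genes kept their side of 1.5-fold in 8 of 8 alternatives, chosen after seeing the data. The FSCN3 ratio ranged from 0.256 to 0.587 and that of AKAP3 went down to 0.116. The CRISP2 onset in pachytene cells was kept in 10 of 16 alternatives, lost in 3 and moved in 3. The 10 include runs with the summed somatic classes as background, also for the 3 settings that lost the onset with the highest class. The median share of elongating cells with a UMI was 65.4% thinned to 1000 UMIs, 44.2% at 500 and 86.1% at 2000. No paired analysis was possible because each position had 1 library, and leaving out a library leaves no comparison.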
